A study of Mus musculus with 12 samples.

Results

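The genes described here are 36 interferon-stimulated genes, chosen by symbol from the 55348 genes of the count tables. The rule names them by symbol and uses no value of any library. All 36 were in the tables, and all 36 passed the filter on low counts that left 19052 genes for testing. RNA was sequenced from whole organs of Corti of mice at postnatal day 21 in 4 genotypes with 3 libraries each. The groups were wild-type, Clrn1-/- (a constitutive deletion of Clrn1 exon 4 made with PGK-cre), Clrn2-/- (the clarinet nonsense allele of Clrn2) and Clrn1-/-Clrn2-/-, bred by crossing both mutants. Clrn1 and Clrn2 encode clarin-1 and clarin-2, membrane proteins of hair cells whose loss causes deafness. The stria vascularis and the modiolus had been dissected away. Wild-type mice came from breedings of their own, so breeding and genotype cannot be told apart.

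Each library held 30008679 to 41049302 counts on genes. Xist, made from the inactive X of females, and Ddx3y, a gene of the Y chromosome, were both present in all 12 libraries, at 114 to 260 and 40.5 to 63 CPM (the count of a gene relative to the scaled library total), so each library held RNA of both sexes. The number of mice per library is not given in the sources used here. The hair cell markers Myo7a (41.8 to 52.6 CPM) and Otof (75.9 to 123 CPM) were present throughout. Clrn1 fell from 25.8 ± 2.47 CPM in wild-type mice to 2.83 ± 0.184 in Clrn1-/- and 2.3 ± 0.482 in Clrn1-/-Clrn2-/- mice (mean ± SD, n = 3). Clrn2 was at 2.72 ± 0.727 CPM in wild-type mice, at 1.23 ± 0.172 in Clrn2-/- and 1.08 ± 0.138 in the double mutants. It was also at 0.916 ± 0.107 CPM in Clrn1-/- mice, so that its level does not separate Clrn1-/- from Clrn2-/- mice.

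Interferons are secreted proteins that cells release on sensing viral nucleic acid. Type I and type III interferons signal through JAK kinases to a transcription factor complex that contains IRF9 and binds the interferon-stimulated response element (ISRE), while interferon gamma acts on a palindromic site. The genes turned on in this way encode RNA sensors, transcription factors that amplify the response, antiviral effectors and parts of antigen presentation. Many of them are also transcribed at a low level without infection. In the cochlea, resident macrophages are among the cells that can respond to interferon.

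The binding motifs are shown first because they are a feature that many of the genes share and that the choice did not use. Promoter windows of 250 bases before to 50 bases after the start came from RefSeq on GRCm38.p6, and 27 of the 36 genes had one. The ISRE core was searched as GAAANNGAA and the STAT palindrome as TTCNNNGAA, each on both strands, and matches were allowed to overlap. The ISRE core was found in 17 of 27 genes (63%), against 8.64% of the 12957 tested genes with a window. The STAT palindrome was found in 9 of 27 (33.3%), against 8.22%, and 5 of the 27 held both. Of the 30 ISRE core matches, 24 began within 150 bases before the start. For Isg15, Ifit1, Rsad2, Oas3, Bst2 and Irgm1, genes to which the results below return, 1 match to the ISRE core is printed with up to 20 bases on either side and the match in capitals, as DNA read 5′ to 3′ on the strand that carries it.
Isg15 (chr4:156200862-156200910, - strand): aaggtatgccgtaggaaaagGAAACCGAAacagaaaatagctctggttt
Ifit1 (chr19:34640785-34640833, - strand): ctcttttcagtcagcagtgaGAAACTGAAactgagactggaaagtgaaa
Rsad2 (chr12:26456543-26456591, + strand): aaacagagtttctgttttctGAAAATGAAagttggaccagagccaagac
Oas3 (chr5:120777700-120777748, - strand): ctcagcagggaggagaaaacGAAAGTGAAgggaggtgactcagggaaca
Bst2 (chr8:71537568-71537616, - strand): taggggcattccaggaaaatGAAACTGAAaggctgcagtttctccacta
Irgm1 (chr11:48871416-48871464, - strand): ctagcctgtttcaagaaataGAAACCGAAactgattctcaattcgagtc

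These matches began at positions -72, -84, -119, -69, -124 and -24 from the start, in that order, and those of Ifit1 and Rsad2 lay on the strand opposite to the gene. For the transcription factor gene Irf1, whose windows held the STAT palindrome and no ISRE core, and for Bst2, which held both, the palindrome is printed in the same way.
Irf1 palindrome (chr11:53769904-53769952, + strand): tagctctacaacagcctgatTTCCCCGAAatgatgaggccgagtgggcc
Bst2 palindrome (chr8:71537580-71537628, - strand): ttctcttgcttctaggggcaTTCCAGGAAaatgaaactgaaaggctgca

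The palindrome of Irf1 began at position -90 and that of Bst2 at position -136, just upstream of the ISRE core printed above. Ifi35 held a palindrome at position 7, after the start, and no ISRE core. Irf7, Irf9, Oasl2, Xaf1, Psmb9 and Tap1 had a window with neither motif, which says only that these letters are not in this window. Ifi27 and Parp9 were among the 9 genes without a window. In the plot of motif positions, the matches gather just before the start.

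**Figure D1:**
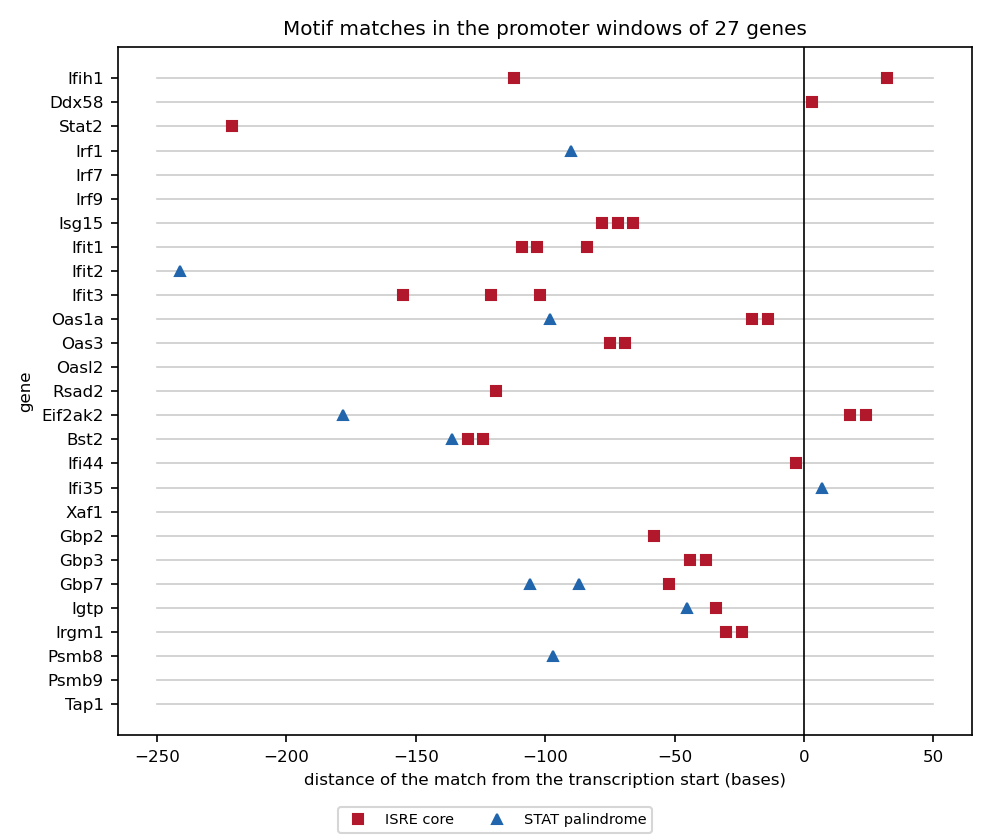
Matches to the ISRE core (squares) and to the STAT palindrome (triangles) in the promoter windows of the 27 genes that had one, by the distance of the first base of the match from the transcription start in bases. Of the 30 ISRE core matches, 24 begin within 150 bases before the start.

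The 36 genes were expressed at low to moderate levels in wild-type organs of Corti. On a scale of CPM per kilobase of exon, which allows genes to be compared, the median over the 36 wild-type means was 3.19, and 30 of the 36 lay above 1. Ifi27, a small membrane protein, led with 60.2 ± 2.51, ahead of Bst2 with 18.3 ± 2.86 and of Ifit3 with 13.1 ± 4.5 CPM per kilobase. Ifit1 (12.1 ± 1.68) and Isg15 (9.97 ± 3.64) followed, and the SDs of neighbours in this order met from Bst2 to Isg15. The lowest were Oas3 (0.143 ± 0.0652), Ifi44 (0.331 ± 0.125), Oas2 (0.505 ± 0.171) and Mx1 (0.519 ± 0.0802). Single libraries held from 10 counts (Oas3) to 3809 counts (Ifi27) of a gene, and 8 genes had fewer than 100 counts in at least 1 library.

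The ligands of the pathway were not detectable at this depth. Of the 21 interferon genes in the tables, 14 had no count in any library, Ifnb1 among them, and none of the others exceeded 2 counts in a library. A count of 0 allows up to 3 counts, or 0.1 CPM in the shallowest library, and covers counting error only. The receptors were present: Ifnar1, the shared chain of the type I receptor, was at 70.7 to 81.6 CPM and Ifngr1 at 30.1 to 37.4 CPM in the 12 libraries.

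The 36 genes varied together between libraries of 1 genotype. In wild-type mice, 31 of the 36 were highest in replicate 1, against 28.5% of all tested genes, and 29 were lowest in replicate 3, against 31.8% of all. Their summed level was 635, 522 and 490 CPM in wild-type replicates 1, 2 and 3. In Clrn1-/- mice the sums were 539, 523 and 471 CPM, with 25 genes highest in replicate 1 and 31 lowest in replicate 3. In Clrn2-/- mice they were 525, 639 and 580 CPM, with 30 genes highest in replicate 2 and 31 lowest in replicate 1. Shares over all tested genes are given for wild-type mice alone. Over all tested genes, Clrn2-/- replicate 1 differed from replicates 2 and 3 by 12.1 and 16.6 times the variance of counting. Replicates 2 and 3 differed by 5.25 times that variance. The double mutants were closer together, at 551, 575 and 518 CPM, and 23 genes were lowest in replicate 3. The sums of the 4 genotypes overlapped.

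**Figure D2:**
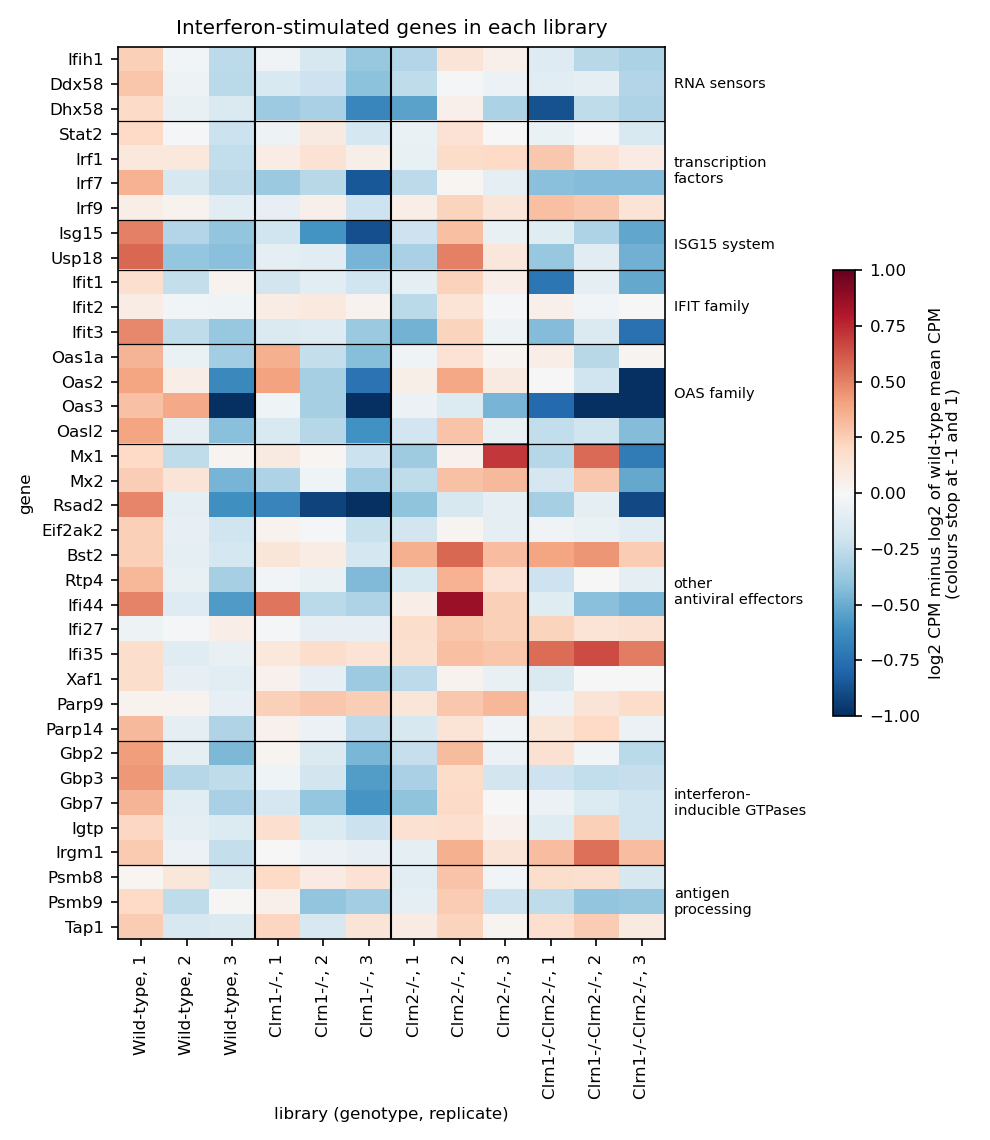
Log2 CPM of each of the 36 genes (rows, by role) in each of the 12 libraries (columns) minus the log2 of the wild-type mean CPM, with colours that stop at -1 and 1. Wild-type replicate 1 is above the wild-type mean for most rows, Rsad2 is below it in all 3 Clrn1-/- libraries, and Ifi35 is above it in all 3 double mutant libraries.

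To describe how closely each gene followed the others, the log2 CPM of each library was taken as a deviation from the mean of its genotype, and the 12 deviations of a gene were correlated with the mean deviation of the other 35. These values describe 12 libraries that share their normalization and are given without a test. The median r was 0.85, and 19 of the 36 genes had an r above 0.8. Oasl2, of the 2′-5′-oligoadenylate synthetase family, and Parp14, a mono-ADP-ribosyltransferase, reached 0.99, and the RNA sensor Ddx58 (RIG-I) 0.97. Ifi27 (-0.00), Parp9 (0.29), Mx1 (0.42) and Ifit1 (0.44) followed least. The 17 genes with an ISRE core had a median r of 0.91, and the 10 with a window and no ISRE core 0.70.

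The genes differed in how far apart their wild-type libraries lay. Usp18, the protease that removes ISG15 from proteins and dampens type I receptor signalling, was at 7.87 CPM in wild-type replicate 1 and at 4.03 and 3.95 CPM in the other wild-type libraries. Isg15, the ubiquitin-like modifier itself, was at 10.7, 6.16 and 5.74 CPM, and Ifit3 at 31.8, 19.1 and 17.5 CPM. In contrast Ifit2, a relative of Ifit3, was at 25.2, 23.6 and 23.3 CPM in the same 3 libraries.

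Genes outside the list varied in the same way. Of 55 other interferon-stimulated genes, 49 were highest among wild-type libraries in replicate 1, and their median r with the mean of the 36 was 0.76, against -0.05 over all tested genes. Among 15371 genes that averaged 1 CPM or more, the 3 with the highest r were Wasf2 (0.97), Slfn5 (0.96) and Stt3a (0.96), of which Slfn5 is itself induced by interferon, and 5 of the 25 highest belonged to the list of other interferon-stimulated genes. The 14 markers of macrophages and microglia had a median r of 0.73, with 11 of the 14 above 0.5, and the 7 red blood cell and 10 fibroblast markers 0.55 each. Wild-type replicate 3, lowest of the wild-type libraries for 29 of the 36 genes, was also lowest for 13 of 14 macrophage, 7 of 7 red blood cell, 9 of 9 neutrophil, 10 of 10 osteoblast and osteoclast and 9 of 10 stria vascularis markers. Hair cell (-0.53), neuron (-0.65) and supporting cell (-0.43) markers went the other way. The summed macrophage markers were at 232, 240 and 185 CPM in the wild-type libraries, and the summed red blood cell markers at 1160, 864 and 710 CPM. No gene of either list was at 0. The part of these cells in the differences between libraries was not tested, and fewer cells of a type and less RNA per cell cannot be told apart in whole tissue.

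**Figure D3:**
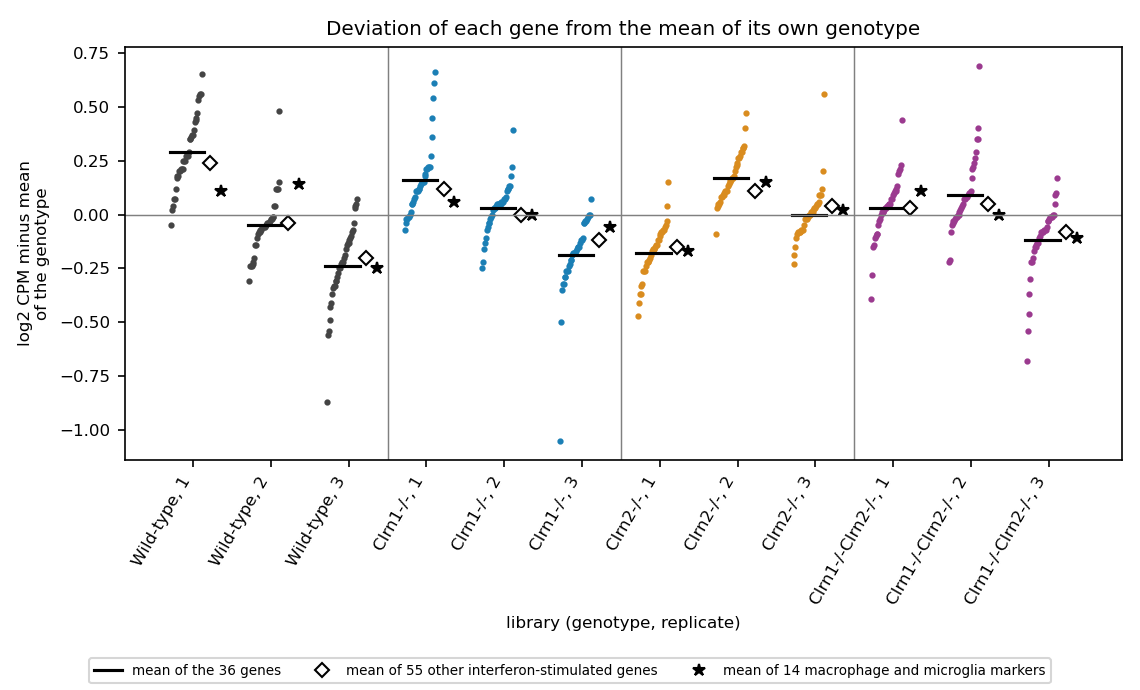
Deviation of log2 CPM from the mean of its own genotype for each of the 36 genes (points, sorted) in each library, with the mean of the 36 (line), of 55 other interferon-stimulated genes (diamond) and of 14 macrophage and microglia markers (star). Wild-type replicate 1 has a mean of 0.29 for the 36 genes and wild-type replicate 3 a mean of -0.24.

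Genotypes were then compared with this spread as the yardstick. Calls required both a change of 1.5-fold or more and an adjusted p (edgeR's quasi-likelihood test, Benjamini-Hochberg over all tested genes) no larger than 0.05. Because most changes were smaller, genes that passed the adjusted p alone are given as well. The 95% interval of the log2 fold change lay within 1.5-fold of no change for 21 of the 36 genes for Clrn1 loss, for 27 for Clrn2 loss and for 19 in the double mutants (58.3%, 75% and 52.8%, against 66.3%, 69.5% and 61.5% of all tested genes). For the remaining genes the interval reached beyond 1.5-fold.

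**Figure D4:**
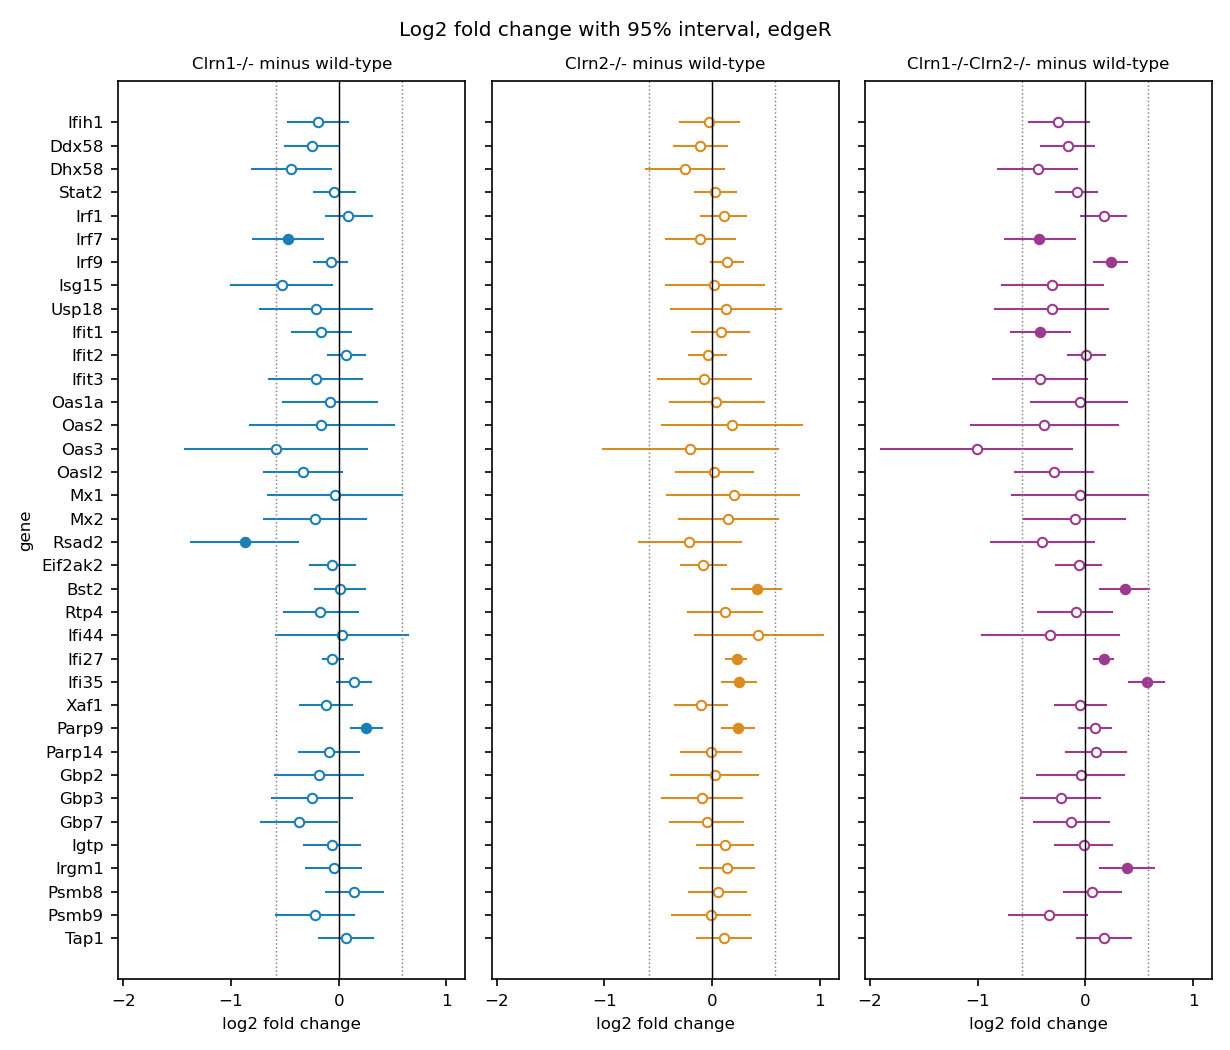
Log2 fold change of the 36 genes against wild-type with its 95% interval (bars) in Clrn1-/-, Clrn2-/- and Clrn1-/-Clrn2-/- mice, with filled points for an adjusted p of at most 0.05 and dotted lines at 1.5-fold. Rsad2 in Clrn1-/- mice has the lowest filled point (-0.87) and Ifi35 in double mutants the highest (0.57).

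In Clrn1-/- mice the antiviral effector Rsad2 fell, the transcription factor Irf7 fell by less than 1.5-fold, and Parp9 rose slightly. Rsad2, which encodes viperin, a radical SAM enzyme that makes a chain-terminating nucleotide, was at 16, 10.7 and 7.44 CPM in wild-type and at 7.21, 6 and 5.45 CPM in Clrn1-/- libraries. All 3 Clrn1-/- libraries were below the lowest wild-type library, by a narrow margin for replicate 1. Such separation below wild-type held for 3 of the 36 genes (8.33%), against 19.8% of all tested genes. The log2 fold change was -0.87 ± 0.23 (SE), with an adjusted p of 0.0109. Of the 36 genes, 0 were called higher and 1 was called lower, against 3.52% higher and 3.7% lower of all tested genes. By the adjusted p alone 1 was higher and 2 were lower, against 13.6% and 13.3% of all.

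Irf7, the regulator that drives interferon alpha genes, was at 16.9, 11.9 and 11.1 CPM in wild-type and 10.3, 11 and 7.38 CPM in Clrn1-/- libraries, which lay below those of wild-type (log2 fold change -0.47 ± 0.15, adjusted p = 0.0296). Parp9, which acts with the ubiquitin ligase DTX3L, was at 22.8, 22.8 and 21 CPM in wild-type and at 26.2, 26.8 and 26.4 CPM in Clrn1-/- libraries (0.25 ± 0.07, adjusted p = 0.0136). The median log2 fold change of the 36 was -0.14, against -0.00 over all tested genes, and 28 of the 36 were below 0. These counts rested on single libraries. Without wild-type replicate 1 the median became 0.07, Rsad2 was at -0.55 and no longer passed, no gene was lower and 2 were higher, Ifi35 and Parp9. Without wild-type replicate 3 the median was -0.22, 6 genes were lower and none was higher, and 3 were called, Irf7, Isg15 and Rsad2. Isg15 was called beside Rsad2 without Clrn1-/- replicate 1, Irf7 beside Rsad2 without Clrn1-/- replicate 2, and Rsad2 was the 1 gene that passed as lower without Clrn1-/- replicate 3. The median was -0.22 without Clrn1-/- replicate 1 and -0.03 without Clrn1-/- replicate 3.

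Replicate numbers were taken to pair the Clrn1-/- with the wild-type libraries, as described with the processing. This pairing is a hint from the same data, and no label states it. With the replicate number as a block and these 2 genotypes alone, 7 of the 36 genes were lower and 1 was higher by the adjusted p. The 7 were the RNA sensors Ddx58 (log2 fold change -0.24, adjusted p = 0.0437) and Dhx58 (-0.44, 0.0272), Irf7 (-0.47, 0.0202), Isg15 (-0.50, 0.0129), Oasl2 (-0.31, 0.0268), Rsad2 (-0.82, 0.00318) and the guanylate-binding protein gene Gbp7 (-0.35, 0.0198). Rsad2 alone was also past 1.5-fold. With the block across all 4 genotypes, 3 were lower and 1 was higher. The shares of all tested genes that passed in the fits with a block were not determined, so these counts have no background beside them.

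In Clrn2-/- mice no gene was called, and the 4 that passed the adjusted p were all higher. These were Bst2, Ifi27, Ifi35 and Parp9, and the same 4 genes were those with an unadjusted p under 0.05 in edgeR. No gene was called by limma-voom or DESeq2 either. The background was 1.24% called higher and 1.42% called lower, and 7.14% higher and 7.07% lower by the adjusted p alone. At an unadjusted p under 0.05 the background is at least as large as by the adjusted p. Bst2, tetherin, holds budding virus particles at the cell surface. Its level was 19.5, 15.5 and 14.6 CPM in wild-type and 21.1, 24.6 and 20.4 CPM in Clrn2-/- libraries (log2 fold change 0.42 ± 0.11, adjusted p = 0.0163). Ifi27 was at 85.4, 87.2 and 92.5 CPM in wild-type and at 99.6, 107 and 104 CPM in Clrn2-/- libraries (0.23 ± 0.04, adjusted p = 0.00256). For both genes every Clrn2-/- library was above every wild-type library. Such separation above wild-type held for 4 of the 36 genes (11.1%), against 14.6% of all tested genes. Parp9 was at 24.1, 26.8 and 27.9 CPM (0.24 ± 0.07, adjusted p = 0.0297).

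Ifi35, an IRF-associated leucine zipper protein gene, overlapped between the genotypes, at 18.2, 14.8 and 15.3 CPM in wild-type and 18, 19.8 and 19.5 CPM in Clrn2-/- libraries (0.25 ± 0.08, adjusted p = 0.0406). The median log2 fold change of the 36 was 0.04, and 22 were above 0. It was 0.20 without wild-type replicate 1, -0.06 without wild-type replicate 3 and -0.07 without Clrn2-/- replicate 2. The number that passed fell to 1, Ifi27, without wild-type replicate 3 or without Clrn2-/- replicate 2. It was 2 without wild-type replicate 2 (Ifi27 and Parp9) and without Clrn2-/- replicate 3 (Bst2 and Ifi27).

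In Clrn1-/-Clrn2-/- mice the genes went in both directions, and none was called. Irf9, Bst2, Ifi27, Ifi35 and Irgm1 rose and Irf7 and Ifit1 fell by the adjusted p alone. At an unadjusted p under 0.05 there were 9, with a background at least as large as that by the adjusted p, given next. Neither limma-voom nor DESeq2 called a gene. Of all tested genes, 5.88% were called higher and 4.02% lower, and 19.1% and 17.9% by the adjusted p alone, so that 5 and 2 of 36 were smaller shares than in the background. Ifi35 was at 23.7, 25.3 and 23 CPM in the double mutants, above the other 9 libraries, which lay between 14.8 and 19.8 CPM. Its log2 fold change was 0.57 ± 0.08 with an adjusted p of 1.8e-05, or 1.49-fold, just under the 1.5-fold that a call required. Without wild-type replicate 1, or without double mutant replicate 3, it was past that fold.

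Irf9, a DNA-binding subunit of the complex that recognises the ISRE, was at 31.4, 30.7 and 27.8 CPM in wild-type and 36.9, 36.1 and 32.9 CPM in double mutant libraries (0.24 ± 0.07, adjusted p = 0.0157). Irgm1, an immunity-related GTPase that acts on autophagy, was at 23.8, 19.1 and 16.9 CPM in wild-type and 24.6, 29.2 and 24.6 CPM in double mutant libraries (0.39 ± 0.12, adjusted p = 0.0154). Bst2 was at 21.7, 22.4 and 19.7 CPM (0.37 ± 0.11, adjusted p = 0.0136), and Ifi27 at 103, 97 and 98.2 CPM (0.17 ± 0.04, adjusted p = 0.00622). For these 4 genes the double mutant libraries were all above those of wild-type, for Bst2 by a narrow margin. Of the 36 genes, 13.9% were separated above wild-type in this way and 8.33% below, against 25% and 23.2% of all tested genes.

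Ifit1, which binds viral RNA that lacks the cap methylation of host mRNA, was at 36.2, 27.4 and 33.1 CPM in wild-type and at 19.6, 30.2 and 22.6 CPM in double mutant libraries. These values overlapped, and the log2 fold change was -0.42 ± 0.13 with an adjusted p of 0.0178. Irf7 was at 9.93, 9.84 and 9.85 CPM, below all wild-type libraries (-0.43 ± 0.15, adjusted p = 0.0369). Rsad2 was at 9.08, 10.7 and 6.11 CPM (-0.40 ± 0.23, adjusted p = 0.181), overlapping those of wild-type. The median log2 fold change of the 36 was -0.09, with 25 below 0. It was 0.05 without wild-type replicate 1, -0.25 without wild-type replicate 3 and -0.16 without double mutant replicate 2. No gene remained lower without wild-type replicate 1 or without double mutant replicate 1 or 3, and 9 were lower without wild-type replicate 3, of which Ifit3, Oas3 and Rsad2 were called. Ifit1 was called without double mutant replicate 2, and Oas3 without Clrn1-/- replicate 3. Without wild-type replicate 2, wild-type replicate 3 or double mutant replicate 2, the number that rose was 3, 2 and 2.

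**Figure D5:**
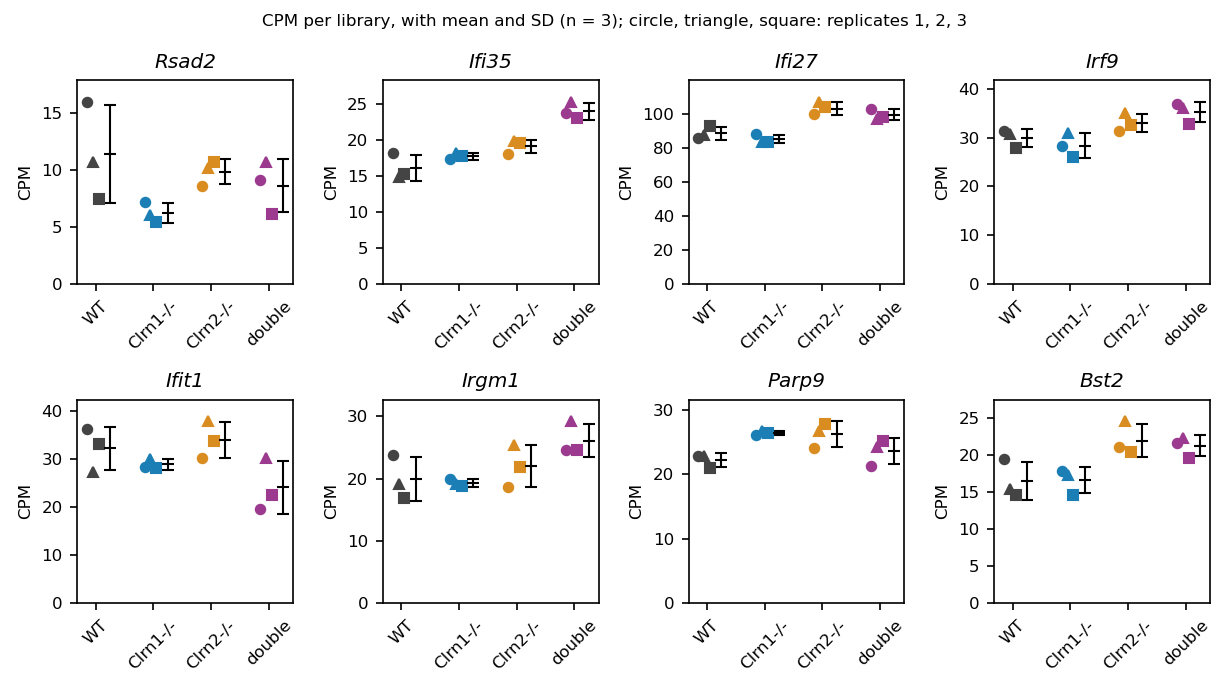
CPM in each of the 3 libraries of the 4 genotypes for the 8 genes named by rule, with replicates 1, 2 and 3 as circle, triangle and square and the mean with its SD (n = 3) as bars, on axes that start at 0. Double mutant libraries of Ifi35 (23 to 25.3 CPM) lie above the other 9, and Clrn1-/- libraries of Rsad2 (5.45 to 7.21 CPM) lie below those of wild-type.

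Read by role, and with the fit that has no replicate block unless stated, the RNA sensors Ifih1 (MDA5), Ddx58 and Dhx58 (LGP2) had log2 fold changes below 0 in all 3 mutants, from -0.44 to -0.03, and none passed. With the block, Ddx58 and Dhx58 passed in Clrn1-/- mice, as given above, and Dhx58 passed in double mutants. Dhx58 also passed as lower in double mutants with DESeq2 and with the FPKM filter. Without wild-type replicate 1, Ifih1 (0.11) and Ddx58 (0.05) were above 0 in Clrn2-/- mice and Ddx58 was at -0.01 in double mutants. Among the 4 transcription factors, Irf9 and Irf7 went opposite ways in the double mutants, while Stat2 (from -0.08 to 0.03) and Irf1 (from 0.09 to 0.17) did not pass in any mutant. The OAS family, whose products make 2′-5′-oligoadenylates that activate RNase L, did not pass in any. With the block, Oasl2 passed in Clrn1-/- mice (2 genotypes alone) and Oas3 in double mutants (all 4 genotypes). Oas3 had the lowest log2 fold change of all 36, -1.01 with a 95% interval of -1.90 to -0.12 (adjusted p = 0.0709) in the double mutants, at 1.24, 1.31 and 0.481 CPM in wild-type and 0.59, 0.416 and 0.49 CPM in double mutant libraries. The GTPases Gbp2, Gbp3, Gbp7 and Igtp had log2 fold changes from -0.37 to 0.12 without passing, except Gbp7 in Clrn1-/- mice with the block. The immunoproteasome subunits Psmb8 and Psmb9 and the peptide transporter subunit Tap1 lay between -0.34 and 0.17, and none passed. Reads of near-identical relatives (Ifit3 with Ifit3b, Oas1a with Oas1g, Gbp3 with Gbp7) may be split uncertainly by counting. Genes on the same strand overlapped 13.9% of the exon length of Rtp4 (Gm45338), 11.3% of Gbp7 (Gm43802), 8.01% of Igtp (Irgm2), 2.28% of Irf9 (Rnf31) and 1.18% of Parp14 (Gm49730), and reads there could not be assigned where both genes were counted.

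The mutants were then compared with one another, with no gene of the 36 called in any pair. Between 4.73% and 7.23% of all tested genes were called in either direction, 4.73% for Clrn1-/- against Clrn2-/-, 7.23% for double mutants against Clrn1-/- and 5.1% for double mutants against Clrn2-/- mice. By the adjusted p alone, Irf9 (-0.22 ± 0.07, adjusted p = 0.0466), Bst2 (-0.41 ± 0.11, 0.0152) and Ifi27 (-0.28 ± 0.04, 3.7e-04) were lower in Clrn1-/- than in Clrn2-/- mice and none was higher, against 8.99% lower and 9.51% higher of all. Relative to Clrn1-/- mice, double mutants had higher Irf9 (0.31 ± 0.07, 0.00336), Bst2 (0.36 ± 0.11, 0.0194), Ifi27 (0.23 ± 0.04, 9.7e-04), Ifi35 (0.43 ± 0.07, 3.4e-04) and Irgm1 (0.44 ± 0.12, 0.0104), and none was lower. The background there was 15.7% higher and 14.6% lower. Relative to Clrn2-/- mice, Ifi35 was higher (0.33 ± 0.07, 0.00397) and Ifit1 lower (-0.49 ± 0.13, 0.00977) in double mutants, against 14.4% and 13.2% of all. At an unadjusted p under 0.05 in edgeR there were 6, 6 and 5 genes in these pairs, in the same order. The shares of all tested genes under that p are at least those by the adjusted p. DESeq2 called Ifi44 in the last pair while limma-voom called none. The 3 genes lower in Clrn1-/- than in Clrn2-/- mice were reduced to 1, Ifi27, without Clrn1-/- replicate 3 or Clrn2-/- replicate 2. They were 2, Bst2 and Ifi27, without wild-type replicate 2, Clrn1-/- replicate 1, Clrn2-/- replicate 3 or double mutant replicate 1 or 2. Without wild-type replicate 1 they were 5, and without a filter on low counts 9. The 5 genes higher in double mutant than in Clrn1-/- mice were 3 without double mutant replicate 2, Irf9, Ifi27 and Ifi35. For double mutant against Clrn2-/- mice, 2 were higher and 9 lower without a filter on low counts. With these 2 genotypes alone, 1 was higher and 4 were lower. These comparisons share libraries with those against wild-type.

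For Bst2 and Ifi27 the 6 libraries with the Clrn2 mutation lay above the 6 without it, for Bst2 by a narrow margin. Bst2 no longer passed in Clrn2-/- mice without wild-type replicate 2 or 3 or without Clrn2-/- replicate 2. The Clrn2 mutation and descent from the line that carries it cannot be told apart. Bst2 was at 14.6 to 19.5 CPM in the 6 libraries with intact Clrn2 and at 19.7 to 24.6 CPM in the 6 without, and Ifi27 at 83.6 to 92.5 and 97 to 107 CPM. The interaction of Clrn1 and Clrn2 loss was at -0.06 ± 0.15 (adjusted p = 0.836) for Bst2 and at -0.00 ± 0.06 (adjusted p = 0.996) for Ifi27 on the log2 scale. Of the 36 genes, 1 passed the adjusted p for this interaction, against 17.4% of all tested genes in either direction, and none was called, against 5.5%. That gene was Parp9, which rose in each single mutant and not in the double mutants, where it was at 21.3, 24.3 and 25.2 CPM (interaction -0.41 ± 0.10, adjusted p = 0.00987).

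Other genes of the pathway gave a wider range. Their counts by the adjusted p stand beside the shares over all tested genes given above, 13.6% higher and 13.3% lower in Clrn1-/-, 7.14% and 7.07% in Clrn2-/-, and 19.1% and 17.9% in double mutant mice. Among 18 tested receptor and JAK-STAT genes, Socs3, the feedback inhibitor of cytokine receptors, rose in all 3 mutants. It was at 5.34, 5.42 and 4.78 CPM in wild-type, 8.38, 8.95 and 8.34 in Clrn1-/-, 7.42, 8.17 and 9.89 in Clrn2-/- and 11.3, 11.2 and 13.8 CPM in double mutant libraries. The log2 fold changes were 0.73 ± 0.12 (adjusted p = 2.8e-04), 0.71 ± 0.12 (7.4e-04) and 1.23 ± 0.11 (5.8e-07). Ifnlr1, the ligand-binding chain of the type III receptor, was called in double mutants (0.91 ± 0.13, adjusted p = 3.2e-05), at 7.02 to 8.02 CPM against 4 to 4.07 CPM in wild-type. By the adjusted p, 4 of the 18 were higher and 1 lower in Clrn1-/-, 1 and 1 in Clrn2-/-, and 7 and 3 in double mutant mice. Socs3 responds to other cytokines as well as to interferon.

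Among 23 tested genes of nucleic acid sensing, Aim2, a cytosolic DNA sensor of the inflammasome, was called higher in all 3 mutants, with log2 fold changes of 0.88 ± 0.20 (adjusted p = 0.00369), 1.33 ± 0.19 (2.4e-04) and 1.16 ± 0.19 (1.9e-04). Its level was 0.835 to 1.43 CPM in wild-type and 1.82 to 3.03 CPM in the 9 mutant libraries. Tlr3, the endosomal sensor of double-stranded RNA, was called in double mutants alone (0.65 ± 0.09, adjusted p = 2.2e-05), at 34.1 to 37.2 CPM against 20.3 to 23.9 CPM in wild-type, and under 1.5-fold (0.57) without wild-type replicate 3. Of the 23, 1 was higher and 1 lower for Clrn1 loss by the adjusted p, 1 and 0 for Clrn2 loss, and 6 and 0 in the double mutants.

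Of the 55 other interferon-stimulated genes, 3 were higher and 7 lower in Clrn1-/-, 2 and 1 in Clrn2-/-, and 8 and 2 in double mutant mice by the adjusted p, none of them a larger share than over all tested genes. Isg20, a 3′ to 5′ exonuclease of single-stranded RNA, was at 5.48, 3.81 and 3.39 CPM in wild-type and 1.49, 1.24 and 2.03 CPM in Clrn1-/- libraries (-1.41 ± 0.22, adjusted p = 2.1e-04). Gbp6, a guanylate-binding protein gene, was at 2.68 to 4.27 CPM and 1.39 to 2.07 CPM (-0.90 ± 0.21, adjusted p = 0.00491). Ube2l6, the enzyme that conjugates ISG15, was at 12.4 to 17.6 CPM and 8.8 to 10.9 CPM (-0.61 ± 0.13, adjusted p = 0.00321), and it lost its call without wild-type replicate 1 (-0.47) or Clrn1-/- replicate 2 (-0.53). In double mutants Ifitm1, which blocks viral entry, was called higher (0.62 ± 0.10, adjusted p = 1.6e-04), and was under 1.5-fold without wild-type replicate 3 (0.51) or double mutant replicate 1 (0.57). Of 16 other class I presentation genes none was called in the 3 mutants, and 2 and 0, 1 and 1, and 6 and 0 were higher and lower by the adjusted p.

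Macrophage markers, which followed the 36 genes between libraries of 1 genotype, changed differently between genotypes. Of the 14, 10 rose by the adjusted p in Clrn1-/-, 2 in Clrn2-/- and 12 in double mutant mice, and none fell, with median log2 fold changes of 0.51, 0.21 and 0.68. Their summed levels were 185 to 240 CPM in wild-type, 319 to 348 in Clrn1-/-, 223 to 278 in Clrn2-/- and 333 to 389 CPM in double mutant libraries. The defining marker Csf1r was at 40.6 to 51.6 CPM in wild-type and 55 to 64.9 CPM in double mutant libraries. The summed levels of the 36 genes were 490 to 635, 471 to 539, 525 to 639 and 518 to 575 CPM in the same order, with no such rise. Of the 7 red blood cell markers, 6 fell in Clrn1-/- and 5 in each of the other mutants. Their sums were 286 to 389, 438 to 657 and 547 to 738 CPM, of which the last overlapped the 710 to 1160 CPM of wild-type libraries. The part of either cell type in the changes of the 36 genes was not tested.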

How the data were processed

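Gene-level read counting was done by the authors with STAR on GRCm38.p6 and the Gencode M24 annotation, from directional poly-A libraries read as paired ends of 100 bases. The deposited values are raw counts per gene and library, without normalization or pooling. Of the deposited count columns, the one in the orientation of the kit was used. Reads not on genes (13.5% to 15.8% of the total) were left out.

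Libraries were grouped by their genotype labels, and the replicate numbers came from the titles. With R 4.3.3 and edgeR 4.0.16, genes were kept by filterByExpr (minimum count 10), scaled by TMM and fitted over all 12 libraries by genotype. Quasi-likelihood tests were adjusted by Benjamini-Hochberg over 19052 genes. CPM values use TMM library sizes. Standard errors were derived from the test statistic. Log2 CPM deviations used a prior count of 2. The study used 2 or more litters per genotype, but which litter gave which library is not stated, so p-values measure the spread between these libraries. Replicates differed by more than counting noise, with a variance 4.02 to 16.6 times that of counting.

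Replicate numbers were checked by correlating the deviations of same-numbered libraries from their genotype means, using the 12453 genes that averaged 5 CPM or more. Wild-type and Clrn1-/- libraries gave 0.269, 0.126 and 0.105 for replicates 1, 2 and 3, all over 0.1, and were taken as paired. The pairing is a hint from the data and not stated in the labels. No other pair of genotypes passed for all 3 numbers. Single numbers of other pairs reached as high, with 0.279 for wild-type and Clrn2-/- replicate 2 and 0.301 for wild-type and double mutant replicate 3.

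Gene positions and exon lengths came from Gencode M21, on the same build. Alternatives were limma-voom (limma 3.58.1), DESeq2 1.42.0, library size without TMM, no filter, an FPKM filter of 0.1, fits of 2 genotypes alone, the replicate block, no fold minimum, unstranded counts, and leaving out each library. The 36 genes, the lists and the tests were chosen with earlier results of these data known. Genes with values per library were those called, then those with the smallest adjusted p until there were 8. Library values of Irf7, Isg15, Usp18, Ifit2, Ifit3 and Oas3 were added after they were seen. From each pathway list, up to 3 called genes per direction that averaged 1 CPM or more in a genotype are named.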

Additional observations from a re-analysis of the deposited data

Results flagged for a closer look

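Among the genes named in the comparisons with wild-type, the effect of losing 1 clarin differed for 6 with the state of the other, by edgeR's test of the interaction over all tested genes on the log2 scale (3 libraries per genotype). Over all tested genes 17.4% passed this test. In the pathway lists 1 gene passed as higher and 2 as lower of 18 receptor and JAK-STAT genes, 2 and 2 of 23 sensing genes, 9 and 1 of 55 other interferon-stimulated genes, and 3 and 0 of 16 class I genes. Of the 36 genes, Parp9 gave -0.41 (adjusted p = 0.00987): it rose in both single mutants and not in the double mutants. The other 5 belong to the pathway lists. Aim2 gave -1.04 (adjusted p = 0.0125), having risen in all 3 mutants by less than the sum of the single effects in the double mutants. Isg20 gave 1.33 (adjusted p = 0.00693) and Ube2l6 0.58 (adjusted p = 0.0451), and both fell in Clrn1-/- mice without passing in the double mutants. Tlr3 gave 0.64 (adjusted p = 0.00227) and Ifitm1 0.55 (adjusted p = 0.0159), and both rose in double mutants without passing in either single mutant.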

How the results depend on the processing

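Replicate spread sets the limit here, since leaving out 1 library, of the wild-type or of a mutant, moved several counts. Low counts limit genes such as Oas3. Values of single genes were followed over 23 alternatives only where they passed in the main fit, which 37 did. Of 784 such values, 724 kept their direction and their side of the threshold, 60 no longer passed and 0 reversed. The fit of Clrn1-/- and wild-type libraries alone with the replicate block was added after seeing the data. So were all alternatives to the counts by adjusted p alone. Of 335 counts, 272 stayed within 1.5 times their main value. The cause of the other changes was not tested.

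Counts of the 36 genes that were called changed as follows. Without the fold minimum they were 1 higher and 2 lower in Clrn1-/-, 4 higher in Clrn2-/-, and 5 higher and 2 lower in double mutant mice. They were then 3 between the single mutants, 5 and 2 for double mutants against Clrn1-/- and Clrn2-/- mice, and 1 for the interaction. Library size alone gave 1 higher in double mutants (Ifi35). Without a filter on low counts 1 was lower in double mutants (Oas3), 1 differed between single mutants, 2 between double and Clrn2-/- mice, and 2 for the interaction. The FPKM filter gave 1 and 1, the 2 genotypes alone 1 and 2, and the replicate block 1 and 1 for these pairs of mutants. The block also gave 1 lower in double mutants (Oas3), and DESeq2 gave 1 between double and Clrn2-/- mice.

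By the adjusted p alone, the number lower in Clrn1-/- mice was 1 with library size alone, 9 without a filter and 7 with the replicate block and 2 genotypes. The number higher in Clrn2-/- mice was 2 with the 2 genotypes alone. The number lower in double mutants was 1 by limma-voom, 1 with library size alone, 10 without a filter and 4 with the replicate block. Outside Clrn1-/- against wild-type, no pair of genotypes passed the check of replicate numbers.

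Leaving out each library in turn gave 0 to 3 called lower in Clrn1-/-, 0 to 1 called higher and 0 to 3 called lower in double mutants. It gave 0 to 1 between single mutants, 0 to 1 for double against Clrn2-/- mice and 0 to 1 for the interaction. By the adjusted p alone the ranges were 0 to 2 higher and 0 to 6 lower in Clrn1-/-, 1 to 4 higher in Clrn2-/-, and 2 to 6 higher and 0 to 9 lower in double mutants.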
